A study of Arabidopsis thaliana with 10 samples.

Results

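The ethylene response factor (ERF) genes described here are 10 Arabidopsis thaliana genes, grouped as stress-responsive transcription factors. They were taken by gene identifier from the 32833 genes in each table, by a rule that names genes and uses no measured value. The members and the lists set beside them were, however, chosen with earlier results of these data known. They are ERF1A (AT4G17500), ERF2 (AT5G47220) and ERF13 (AT2G44840) of ERF group IXa, ERF5 (AT5G47230) and ERF6 (AT4G17490) of group IXb, ERF4 (AT3G15210) and ERF11 (AT1G28370) of group VIIIa, and ERF109 (AT4G34410), RAP2.6 (AT1G43160) and RAP2.6L (AT5G13330) of group X. RNA-seq was carried out to find genes that respond to jasmonic acid (JA). All 10 libraries came from whole wild-type Col-0 seedlings, grown on agar for 10 days in long days. Set1_ctrl (2 libraries) and Set2_ctrl (3 libraries) were untreated, and Set1_2hJA (2 libraries) and Set2_2hJA (3 libraries) were exposed for 2 h to gaseous methyl jasmonate (MeJA), which is called JA below. Set1 belonged to a pilot experiment and Set2 to a later, larger one, so growth, harvest and library preparation differed together between the sets and cannot be told apart. The large experiment of Set2 is described as 3 independent time courses and Set1 only as biological replicates, and it is not said from which seedlings each RNA library came, so p-values measure the spread between these libraries. A whole seedling mixes many cell types, so fewer cells of a type and less RNA per cell cannot be told apart in any value below.

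ERF proteins carry a single AP2/ERF DNA-binding domain, and many of them bind the GCC-box in the promoters of defence genes such as the defensin PDF1.2a. Those of group IX mostly activate transcription, whereas those of group VIIIa carry an EAR motif that recruits corepressors. JA signalling acts through the bHLH factor MYC2, which binds the G-box CACGTG and closely related sequences, and JAZ proteins hold MYC2 inactive until JA-Ile is perceived. Many ERF transcripts are also short-lived and respond within minutes to touch, wounding, light or oxidative stress.

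In RefSeq's TAIR10.1 annotation, ERF1A spans chr4:9759203-9760391, ERF6 chr4:9752824-9754161 and ERF109 chr4:16451876-16453260. ERF2 spans chr5:19171643-19172956, ERF5 chr5:19179881-19181182 and RAP2.6L chr5:4271730-4274674. ERF11 spans chr1:9955774-9956980, RAP2.6 chr1:16263805-16264945, ERF13 chr2:18495215-18496327 and ERF4 chr3:5121303-5122562.

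Because MYC2 binds the G-box, the 250 bases before the annotated start are shown for 4 genes that JA raised in at least 1 comparison (ERF1A, ERF2, RAP2.6 and ERF13) and for 2 that passed no JA test (ERF4 and ERF6). The sequences are RefSeq's, of TAIR10.1. ERF1A lies on chromosome 4 (window chr4:9758953-9759202, plus strand), ERF2 on chromosome 5 (chr5:19172957-19173206, minus strand), RAP2.6 on chromosome 1 (chr1:16263555-16263804, plus strand) and ERF4 on chromosome 3 (chr3:5121053-5121302, plus strand), and these windows hold a G-box. ERF13 on chromosome 2 (chr2:18494965-18495214, plus strand) and ERF6 on chromosome 4 (chr4:9754162-9754411, minus strand) hold none. Each line reads 5′ to 3′ on the strand of the gene, and capitals mark matches, on either strand, to the G-box CACGTG, its MYC2-bound variant CACATG, the GCC-box GCCGCC, the W-box core TTGAC, the core TGACG bound by TGA factors, or the rapid stress response element CGCGTT. Matches that overlap or touch run together as 1 stretch of capitals.
ERF1A: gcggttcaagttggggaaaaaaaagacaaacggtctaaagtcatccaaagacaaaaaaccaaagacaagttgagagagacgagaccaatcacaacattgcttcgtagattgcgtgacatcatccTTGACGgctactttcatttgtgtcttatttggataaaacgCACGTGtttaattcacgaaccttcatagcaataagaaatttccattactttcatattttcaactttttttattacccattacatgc
ERF2: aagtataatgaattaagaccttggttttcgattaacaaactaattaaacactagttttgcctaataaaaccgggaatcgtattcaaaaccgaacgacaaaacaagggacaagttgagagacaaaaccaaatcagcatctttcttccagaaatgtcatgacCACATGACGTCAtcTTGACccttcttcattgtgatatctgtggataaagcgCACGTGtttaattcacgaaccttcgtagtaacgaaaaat
RAP2.6: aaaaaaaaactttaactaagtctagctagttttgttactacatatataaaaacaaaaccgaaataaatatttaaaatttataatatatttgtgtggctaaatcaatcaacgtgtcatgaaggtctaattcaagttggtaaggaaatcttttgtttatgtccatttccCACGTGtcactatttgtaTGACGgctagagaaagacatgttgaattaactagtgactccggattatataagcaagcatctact
ERF4: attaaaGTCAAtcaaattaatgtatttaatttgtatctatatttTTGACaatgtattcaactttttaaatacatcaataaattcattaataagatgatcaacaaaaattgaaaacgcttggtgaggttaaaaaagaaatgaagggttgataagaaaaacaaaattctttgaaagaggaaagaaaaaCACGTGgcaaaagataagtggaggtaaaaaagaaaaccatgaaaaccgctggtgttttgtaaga
ERF13: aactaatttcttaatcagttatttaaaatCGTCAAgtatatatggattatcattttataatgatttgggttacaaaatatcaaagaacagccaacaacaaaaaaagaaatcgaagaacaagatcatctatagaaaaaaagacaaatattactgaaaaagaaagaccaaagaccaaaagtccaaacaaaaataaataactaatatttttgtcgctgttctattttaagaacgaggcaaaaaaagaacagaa
ERF6: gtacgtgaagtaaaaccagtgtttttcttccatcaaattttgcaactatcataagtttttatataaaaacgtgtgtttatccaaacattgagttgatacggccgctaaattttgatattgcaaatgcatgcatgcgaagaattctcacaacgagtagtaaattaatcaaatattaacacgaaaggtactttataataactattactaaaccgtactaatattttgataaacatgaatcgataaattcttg

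ERF1A and ERF2, which lie on different chromosomes, shared a run of 26 bases around the G-box. It began 88 bases before the start of ERF1A and 41 bases before the start of ERF2, and it was present in these 2 of 27443 promoters.
ERF1A and ERF2: cgCACGTGtttaattcacgaaccttc

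In windows from 250 bases before to 50 bases after the start, the G-box was present in 5 of 10 members against 7.68% of 27443 promoters. Those members were ERF1A (first base 86 bases before the start), ERF2 (39 bases before), ERF4 (64 bases before), ERF109 (134 bases before) and RAP2.6 (83 bases before). Among 23 other ERF genes of groups VIIIa, IX and X, 5 held a G-box. CACATG was found in 1 member, ERF2 (12.9% of promoters), and GCCGCC in 1 member, ERF11 (2.57%). TTGAC was found in 7 members (50.5%), TGACG in 5 (23.1%) and CGCGTT in none (3.4%). TTGAC and TGACG overlap where the letters read TTGACG. With the 250 bases before the start alone, the G-box was still found in 5 members against 6.49% of promoters. A match describes the letters and is not a site of binding, and a window without one does not show that binding is absent.

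Set1 libraries held 12147941 to 17200426 expected counts and Set2 libraries 6333822 to 7774547, so low genes were measured with less precision in Set2. The JA-responsive control genes MYC2, JAZ10 and AOS rose in both sets, with log2 fold changes between 3.36 and 3.75. Markers of green tissue (3 of 3) and root (5 of 5) were detected in all 10 libraries, whereas the flower markers AP3 and PI did not exceed 2.26 CPM (counts scaled to a common total) and the seed marker SESA3 did not exceed 0.860 CPM. The seed storage gene CRA1 reached 10.5 CPM in Set1_2hJA replicate 1. After JA, all 3 green tissue markers had negative log2 fold changes in both sets, with GLK2 called lower in Set1 (-2.11, adjusted p = 0.00245), and the root markers were negative for 4 of 5 in Set1 (lowest PRP3, -1.49, adjusted p = 0.0819) and 1 of 5 in Set2. Their part in the responses of the ERF genes was not tested. Plastid and mitochondrial genes took 14.2% and 11.7% of counts in the replicate 1 libraries of Set1_ctrl and Set1_2hJA, but at most 2.68% in the other libraries. Set2_2hJA replicate 1 stood apart from all others. It held counts for 29029 genes (22762 to 25681 elsewhere), and of 4743 genes with no count in any Set1 library, 77.3% had counts there, at 8.83 counts per kilobase, against 0.219 to 0.838 in the other Set2 libraries. The Set2 log2 fold changes after JA of ERF1A, ERF2, ERF4, ERF11, ERF13 and RAP2.6 are given with and without it. Where nothing else is said, other values from Set2_2hJA, such as medians, correlations, coefficients of variation and neighbour ratios, include it.

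Levels per transcript length, in TPM (transcript counts over length, scaled to a common total), put ERF4 first in Set1_ctrl (13.8 ± 1.80 TPM, SD, n = 2), followed by ERF1A (5.11 ± 0.686), ERF5 (3.78 ± 1.21), ERF6 (2.85 ± 0.537), RAP2.6 (1.97 ± 0.120), RAP2.6L (1.21 ± 0.198), ERF2 (1.19 ± 0.163), ERF11 (0.55 ± 0.0849) and ERF13 (0.305 ± 0.290), with ERF109 listed at 0. ERF1A and ERF5, ERF5 and ERF6, RAP2.6L and ERF2, and ERF11 and ERF13 overlapped within 1 SD. In Set1_2hJA, ERF2 moved from the seventh place to the first (23.8 ± 4.03 TPM), ahead of ERF1A (18.8 ± 6.35) and ERF4 (14.0 ± 5.11), and these neighbours overlapped within 1 SD. They were followed by RAP2.6 (7.45 ± 0.573), ERF5 (5.34 ± 1.68), ERF13 (3.82 ± 1.63), RAP2.6L (3.45 ± 1.14), ERF6 (2.81 ± 1.29), ERF11 (1.84 ± 0.799) and ERF109 (0.3 ± 0.0424). In Set2_ctrl the order began with ERF4 (17.4 ± 0.765 TPM, SD, n = 3), RAP2.6L (8.57 ± 2.14), ERF5 (7.52 ± 1.95), ERF2 (6.63 ± 1.12) and ERF1A (6.43 ± 1.75), of which all but ERF4 overlapped within 1 SD. Lower were ERF6 (4.76 ± 2.73), RAP2.6 (2.94 ± 1.25), ERF11 (2.28 ± 0.570), ERF13 (1.25 ± 0.952) and ERF109 (0.89 ± 0.120). In Set2_2hJA it began with ERF2 (41.0 ± 9.15), ERF1A (27.5 ± 12.5), ERF4 (24.9 ± 7.62) and RAP2.6 (12.8 ± 9.25), followed by RAP2.6L (9.61 ± 2.30), ERF5 (7.57 ± 2.24), ERF11 (5.90 ± 4.49), ERF6 (5.21 ± 2.56) and ERF13 (4.05 ± 3.63). Each of these overlapped with the next within 1 SD. ERF109 came last and was listed at 0 in 2 of the 3 libraries. All further levels are CPM of totals scaled by the trimmed mean of M-values (TMM) and are compared between libraries of 1 gene only.

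**Figure D1:**
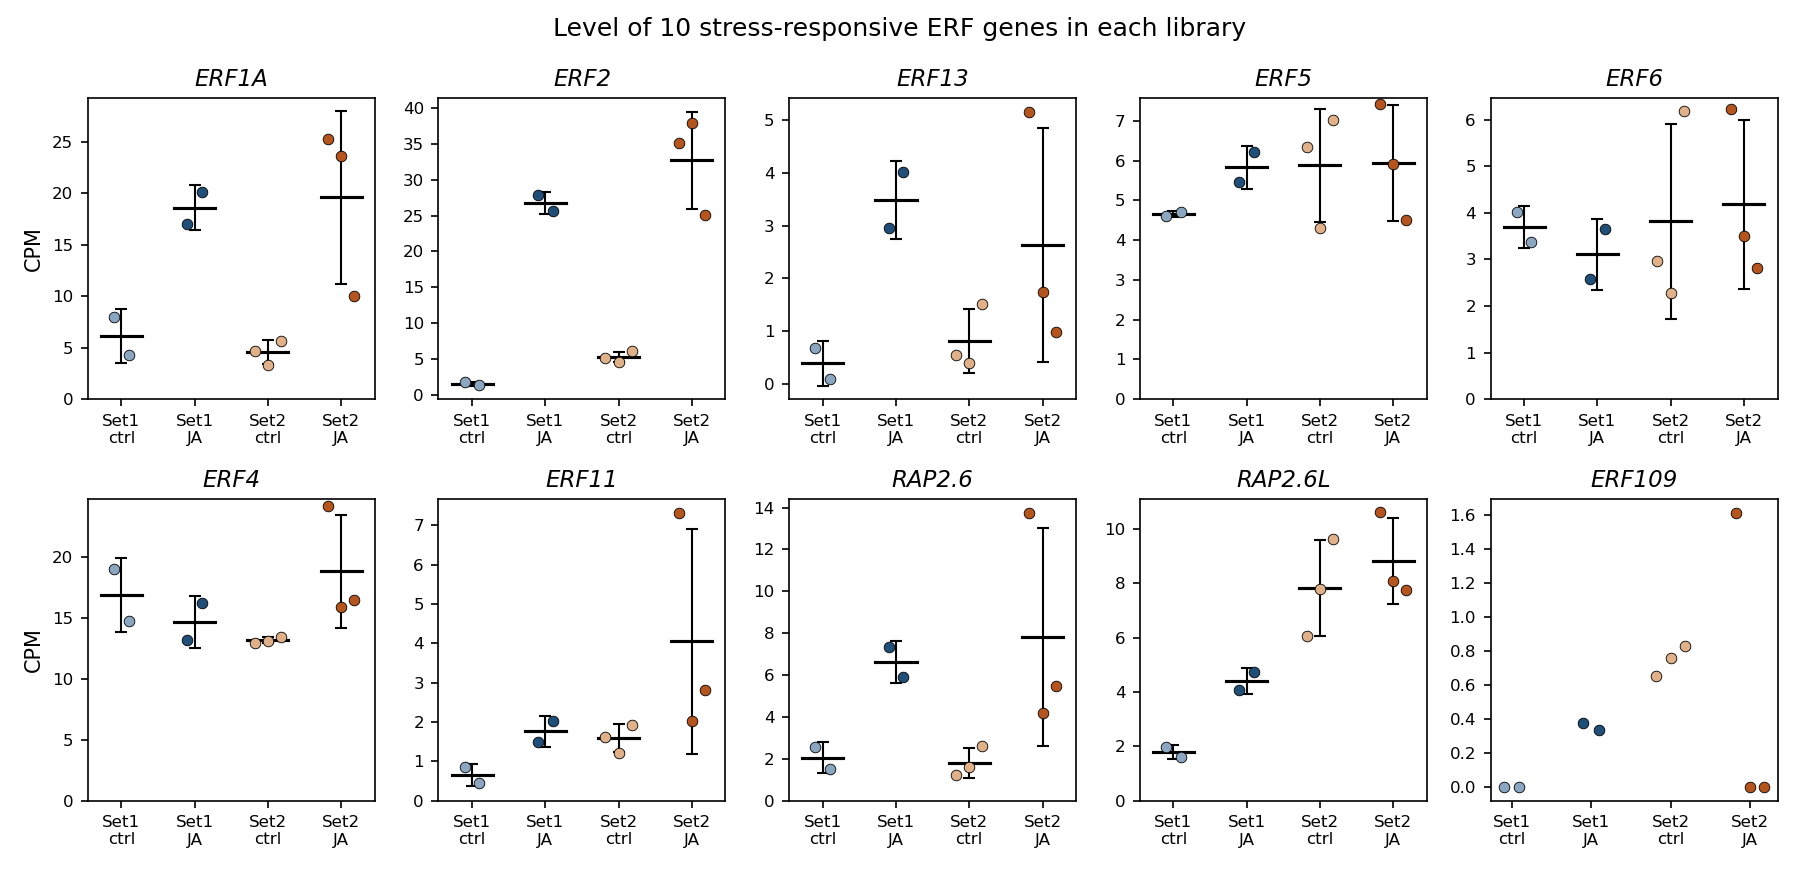
CPM of each ERF gene (y axis, 1 scale per gene) in the 4 groups (x axis). Points are libraries, long lines are group means and bars are SD (n = 2 in Set1, n = 3 in Set2), with points alone for ERF109, which is listed at 0 in 4 libraries. ERF1A, ERF2, RAP2.6 and ERF11 have all JA libraries above the ctrl libraries of their set, whereas ERF6 overlaps in both sets.

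JA raised a subset of the ERF genes, while others did not pass the test. A gene was called where the adjusted p was at most 0.05 and the change at least 2-fold. In Set1, 4 of the 9 members tested rose (ERF2, ERF13, RAP2.6 and ERF1A) and none fell, against a background of 2.94% of 20098 genes higher and 2.2% lower (5.14% in either direction). Of all calls in Set1, 57.2% were higher with TMM, 71.2% with library totals alone and 75.3% with limma. In Set2, 3 of 9 rose (ERF2, ERF1A and RAP2.6) and none fell, against 1.78% of 19259 genes higher and 0.758% lower (2.54% either way). With both sets in 1 fit, 5 of 9 rose (the 4 of Set1 and ERF11) and none fell, against 2.63% of 20213 genes higher and 1.4% lower (4.03% either way). In edgeR no member with a negative log2 fold change had an unadjusted p of 0.05 or less after JA, and DESeq2 and limma called none lower either. The median log2 fold change of the tested members was 1.41 (Set1), 1.37 (Set2) and 1.38 (sets combined), beside -0.02, 0.01 and 0.01 over all genes tested. The median member was ERF11 each time, and without Set2_2hJA replicate 1 its value was 0.59 in Set2 and 0.96 together. No median is given without that library. ERF109 did not pass the filter on low counts in any comparison.

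**Figure D2:**
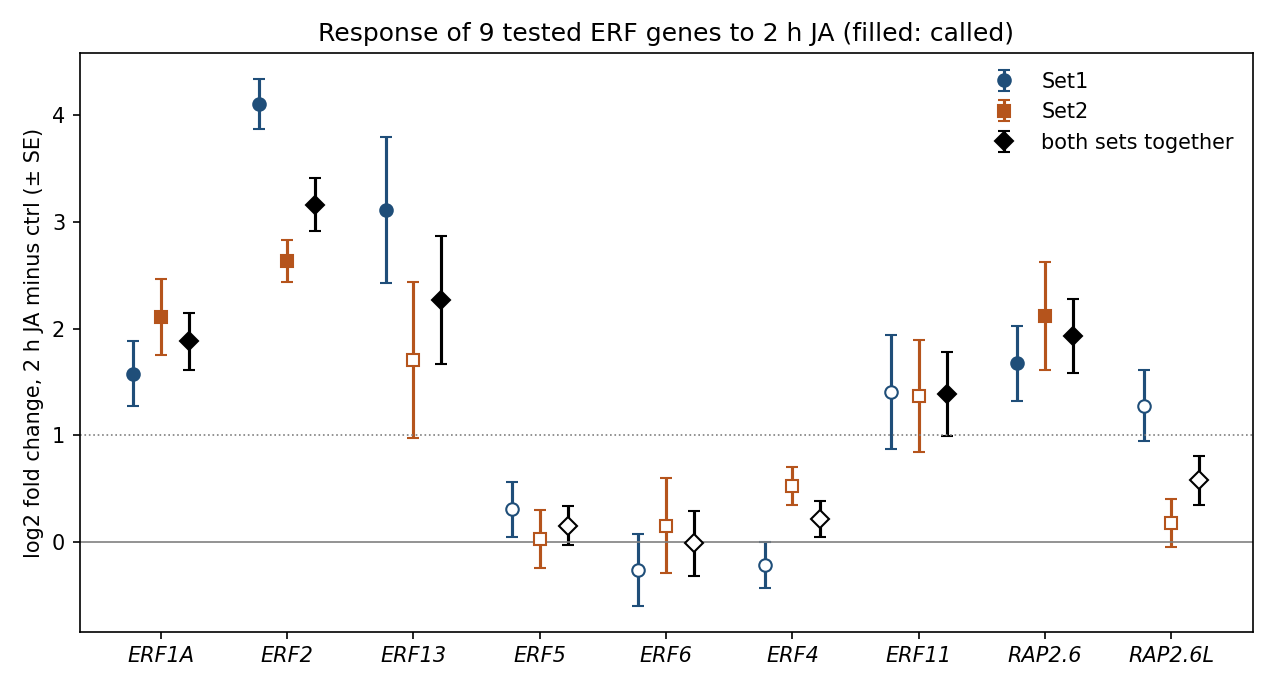
Log2 fold change of 2 h JA over ctrl (y axis, ± SE) for the 9 tested ERF genes (x axis) in Set1 (circles, 2 against 2 libraries), Set2 (squares, 3 against 3) and both sets together (diamonds). Filled symbols are called genes and the dotted line marks a 2-fold increase; ERF2 is highest, from 2.64 to 4.10, and ERF5, ERF6 and ERF4 stay below the line.

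ERF2 of group IXa had the largest log2 fold change of the members tested in either set and with the sets combined. This gene, an activator that binds the GCC-box, measured 1.71 and 1.34 CPM in the Set1_ctrl libraries and 27.8 and 25.7 CPM in the Set1_2hJA libraries. In Set2 it measured 5.13, 4.56 and 6.05 CPM in ctrl and 35.2, 37.9 and 25.0 CPM after JA. The groups did not overlap in either set, and all 5 JA libraries were above all 5 ctrl libraries. The log2 fold change was 4.10 ± 0.23 (SE, adjusted p = 0.00037) in Set1 and 2.64 ± 0.20 (adjusted p = 0.000179) in Set2, or 17.2-fold and 6.22-fold. Together the sets gave 3.16 ± 0.25 (adjusted p = 7.37e-06). ERF2 ranked 67 of 20098 genes by log2 fold change in Set1 and 101 of 19259 in Set2. Without Set2_2hJA replicate 1 the Set2 value was 2.57 (adjusted p = 0.00114). ERF2 was called in all 10, 13 and 17 alternative fits of Set1, Set2 and both sets together.

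ERF1A, the closest counterpart of ERF2 in this group and also an activator, was expressed in untreated seedlings at 8.03 and 4.27 CPM in Set1 and at 4.72, 3.36 and 5.64 CPM in Set2. After JA it measured 17.1 and 20.2 CPM in Set1 and 25.3, 23.7 and 9.99 CPM in Set2. All JA libraries were above all ctrl libraries, with Set2_2hJA replicate 3 closest to the controls. The log2 fold change was 1.58 ± 0.30 (adjusted p = 0.0283) in Set1, 2.11 ± 0.36 (adjusted p = 0.0100) in Set2 and 1.88 ± 0.27 (adjusted p = 0.000598) together. It lost its call without Set1_2hJA replicate 2 (adjusted p = 0.0721) in Set1 and without Set2_ctrl replicate 2 (adjusted p = 0.0566) in Set2. Without Set2_2hJA replicate 1 the Set2 value was 1.87 (adjusted p = 0.0387).

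ERF13, which in Arabidopsis roots restrains lateral root emergence, was among the lowest members. Set1_ctrl held 8 and 1 counts (0.684 and 0.0890 CPM) and Set1_2hJA 38 and 67 (2.96 and 4.01 CPM). In Set2 the counts were 4, 3 and 11 in ctrl (0.540, 0.403 and 1.51 CPM) and 48, 13 and 7 after JA (5.16, 1.75 and 0.985 CPM). The groups were apart in Set1, but in Set2 the lowest JA library lay below the highest ctrl library. ERF13 rose in Set1 (log2 fold change 3.11 ± 0.69, adjusted p = 0.0454) and in the combined fit (2.27 ± 0.60, adjusted p = 0.0257), and in Set2 the value was 1.71 ± 0.73 (adjusted p = 0.255). The Set1 call was lost without Set1_ctrl replicate 2, Set1_2hJA replicate 1 or Set1_2hJA replicate 2 (adjusted p 0.0538 to 0.161), and without Set1_ctrl replicate 1 the value was 5.15. The combined call was lost in 7 of 17 alternatives, which left out a Set1 library (each of the 4), Set2_ctrl replicate 1 or 2, or Set2_2hJA replicate 1 (adjusted p 0.0536 to 0.0753). Without Set2_2hJA replicate 1 the value was 0.73 in Set2 and 1.91 together.

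The group IXb members, ERF5 and ERF6, did not pass the test in any JA comparison. ERF5, an activator linked to chitin responses and to growth under osmotic stress, measured 4.61 and 4.72 CPM in Set1_ctrl and 5.46 and 6.22 CPM in Set1_2hJA. In Set2 it measured 6.34, 4.30 and 7.01 CPM in ctrl and 7.42, 5.92 and 4.50 CPM after JA. The small gap in Set1 was not seen in Set2, where the groups overlapped throughout. Its log2 fold change was 0.31 ± 0.26 (adjusted p = 0.596) in Set1 and 0.02 ± 0.27 (adjusted p = 0.978) in Set2.

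ERF6, a substrate of stress-activated MAP kinases, measured 4.02 and 3.38 CPM in Set1_ctrl and 2.57 and 3.65 CPM in Set1_2hJA. The Set2 libraries measured 2.97, 2.28 and 6.19 CPM in ctrl and 6.24, 3.50 and 2.81 CPM after JA. The groups overlapped in both sets, and 1 ctrl and 1 JA library of Set2 (replicates 3 and 1) were about equally high. Its log2 fold change was -0.26 ± 0.34 (adjusted p = 0.748) in Set1 and 0.15 ± 0.45 (adjusted p = 0.902) in Set2.

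The EAR repressors of group VIIIa differed in level. ERF4 was the member with the highest level per length in untreated seedlings, with 19.1 and 14.8 CPM in Set1_ctrl and 13.2 and 16.2 CPM in Set1_2hJA. In Set2 it measured 13.0, 13.2 and 13.5 CPM in ctrl and 24.2, 15.9 and 16.5 CPM after JA. The groups overlapped in Set1 and were apart in Set2, where the JA libraries were higher. After JA, ERF4 did not pass the test in Set1 (log2 fold change -0.22 ± 0.21, adjusted p = 0.654) or Set2 (0.52 ± 0.18, adjusted p = 0.155), and the Set2 value was 0.28 without Set2_2hJA replicate 1.

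ERF11, which in Arabidopsis represses ethylene synthesis genes, was much lower, with 0.854 and 0.445 CPM in Set1_ctrl and 1.48 and 2.03 CPM in Set1_2hJA. The Set2 libraries measured 1.62, 1.21 and 1.93 CPM in ctrl and 7.31, 2.02 and 2.81 CPM after JA. The groups were apart in both sets, though by little between Set2_ctrl replicate 3 and Set2_2hJA replicate 2. The log2 fold change was 1.41 ± 0.54 (adjusted p = 0.203) in Set1 and 1.37 ± 0.52 (adjusted p = 0.201) in Set2, and ERF11 rose in the combined fit alone (1.38 ± 0.39, adjusted p = 0.0352). The combined call was lost with limma and without Set1_ctrl replicate 2, Set1_2hJA replicate 1 or 2, Set2_ctrl replicate 1 or 2, or Set2_2hJA replicate 1, which were 7 of 17 alternatives (adjusted p 0.0567 to 0.0944). Without Set2_2hJA replicate 1 the value was 0.59 in Set2 and 0.96 together.

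In group X, RAP2.6, an activator induced by JA, abscisic acid and pathogens, measured 2.56 and 1.51 CPM in Set1_ctrl and 7.33 and 5.92 CPM in Set1_2hJA. In Set2 it measured 1.21, 1.61 and 2.61 CPM in ctrl and 13.8, 4.17 and 5.49 CPM after JA. All JA libraries were above all ctrl libraries, and Set2_2hJA replicate 1 was the highest of all. RAP2.6 rose in Set1 (log2 fold change 1.67 ± 0.35, adjusted p = 0.0394), in Set2 (2.12 ± 0.51, adjusted p = 0.0444) and together (1.93 ± 0.35, adjusted p = 0.00277). The combined call held in all 17 alternatives, whereas the Set2 call was lost in 8 of 13. These were library totals, limma, background subtraction and the fits without Set2_ctrl replicate 1, 2 or 3 or Set2_2hJA replicate 1 or 3 (adjusted p 0.0553 to 0.172), and without Set2_2hJA replicate 1 the value was 1.39. In Set1 it was lost without Set1_ctrl replicate 2, Set1_2hJA replicate 1 or Set1_2hJA replicate 2 (adjusted p 0.0742 to 0.147). RAP2.6 and ERF13 belong to a gene set that the study defined partly by JA induction of expression, so their direction here is not independent evidence. The set also required JA-induced MYC2 binding in regulatory regions and a JA-induced gain of the histone mark H3K9ac.

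RAP2.6L, which acts in shoot regeneration and in the rejoining of cut stems, measured 1.97 and 1.60 CPM in Set1_ctrl and 4.05 and 4.73 CPM in Set1_2hJA. The Set2 libraries measured 6.07, 7.79 and 9.63 CPM in ctrl and 10.6, 8.07 and 7.74 CPM after JA. The Set1 groups were apart, the Set2 groups overlapped, and every Set2 library was above every Set1 library. The log2 fold change was 1.28 ± 0.34 in Set1 (adjusted p = 0.0791) and 0.18 ± 0.23 in Set2 (adjusted p = 0.742). When 1 library was left out, the Set2 value ranged from 0.0027 to 0.35.

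ERF109, a redox-responsive factor that links JA to auxin synthesis in roots, was near the detection limit. It was listed at 0 in both Set1_ctrl libraries and held 4.84 and 5.58 expected counts in Set1_2hJA. Their mean CPM was 1.36-fold a floor of 3 counts per control library, with no allowance for the spread of such low counts. In Set2 it held 4.83, 5.63 and 6.01 expected counts in ctrl and 14.98, 0 and 0 after JA. So the JA libraries were higher in Set1, and in Set2 only Set2_2hJA replicate 1 was. Without a filter on low counts, edgeR did not call ERF109 after JA in Set1 (log2 fold change 5.32, adjusted p = 0.202) or Set2 (-0.55, adjusted p = 0.888). The annotation places AT4G08985 and AT4G34412 over the same bases, and the counts were not whole numbers in 6 libraries, so reads were shared between genes. Whether counting used strand is not given in the sources used here, and the values are uncertain. At the level of the silent genes in Set2_2hJA replicate 1, 12.2 of its 14.98 counts would be background (81.6%).

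That background is a smaller share of the other members in Set2_2hJA replicate 1. It came to 20.5% of the counts of ERF13, 20.4% of ERF6, 16.7% of ERF5, 15.1% of ERF11, 13.4% of RAP2.6L, 7.21% of RAP2.6 and 3.55% to 4.94% of ERF2, ERF1A and ERF4. After it was subtracted, ERF2 and ERF1A kept their Set2 calls and RAP2.6 had a log2 fold change of 2.18 (adjusted p = 0.0553).

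By direct comparison of libraries, the JA and ctrl libraries of Set1 were apart, with JA higher, for 7 of the 9 members that passed the filter over all libraries (not ERF4 and ERF6), where 25.7% of all genes that passed were apart in that direction and 23.7% in the other. ERF109, which did not pass, was also apart in Set1. In Set2 they were apart, with JA higher, for 5 of 9 (ERF1A, ERF2, ERF4, ERF11 and RAP2.6), where 10.8% of genes were apart in that direction and 11.6% in the other. No member was apart with JA lower in either set.

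The test of the difference between the sets passed for no member. In edgeR 0 of 20213 genes passed the interaction of set and treatment (0% higher, 0% lower, 0% either way), with 1438 genes at an unadjusted p of 0.05 or less, while DESeq2 called 55 genes higher and 81 lower and limma called 1 lower, none of them a member. At an unadjusted p of 0.05 or less there were 3 members. ERF2 had the smallest p, with a Set2 minus Set1 difference of -1.48 ± 0.32 on the log2 scale (adjusted p = 0.197), and it passed without a filter on low counts (-1.51, adjusted p = 0.0473), where 38 of 30479 genes were called higher and 41 lower (0.125% and 0.135%). With replicate pairs as a block, edgeR called 29 genes higher and 32 lower and no member. RAP2.6L had -1.12 ± 0.37 (adjusted p = 0.454) and ERF4 0.72 ± 0.28 (adjusted p = 0.619). The levels of ERF2 after JA overlapped between the sets, and the levels in ctrl did not.

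The untreated seedlings of the sets were compared next. RAP2.6L was higher in Set2_ctrl than in Set1_ctrl (log2 fold change 2.13 ± 0.31, adjusted p = 0.00434), as was ERF2 (1.78 ± 0.32, adjusted p = 0.00961). These were 2 of the 8 members tested, and none was lower (edgeR, DESeq2 and limma, with none at a negative value and an unadjusted p of 0.05 or less in edgeR), against a background of 4.17% of 19269 genes higher and 3.47% lower (7.64% either way). ERF11 had 1.27 ± 0.51 (adjusted p = 0.127), and the other 5 lay between -0.42 and 0.34. Of the 9 members that passed the filter over all libraries, ERF2, ERF11 and RAP2.6L had all Set2_ctrl libraries above both Set1_ctrl libraries (24.1% of genes that passed), and ERF4 had them below (25.3%). ERF109, which did not pass, had them above. ERF109 was called higher only where no filter was used (adjusted p = 0.0213), against Set1_ctrl libraries at 0. Scaling matters here: with library totals alone the median log2 fold change of all genes was 0.47 (0.01 with TMM), and ERF1A, ERF4 and RAP2.6 turned from negative values to 0.09, 0.13 and 0.33. Relative to that median they were at -0.38, -0.34 and -0.13, ERF2 at 1.80 and RAP2.6L at 2.14. ERF11 was called with library totals (adjusted p = 0.0319) and with limma (adjusted p = 0.00459). Both ERF2 and RAP2.6L were called in all 11 alternatives. The share of higher among all calls was 54.6% with TMM, 91% with library totals and 95% with limma.

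**Figure D3:**
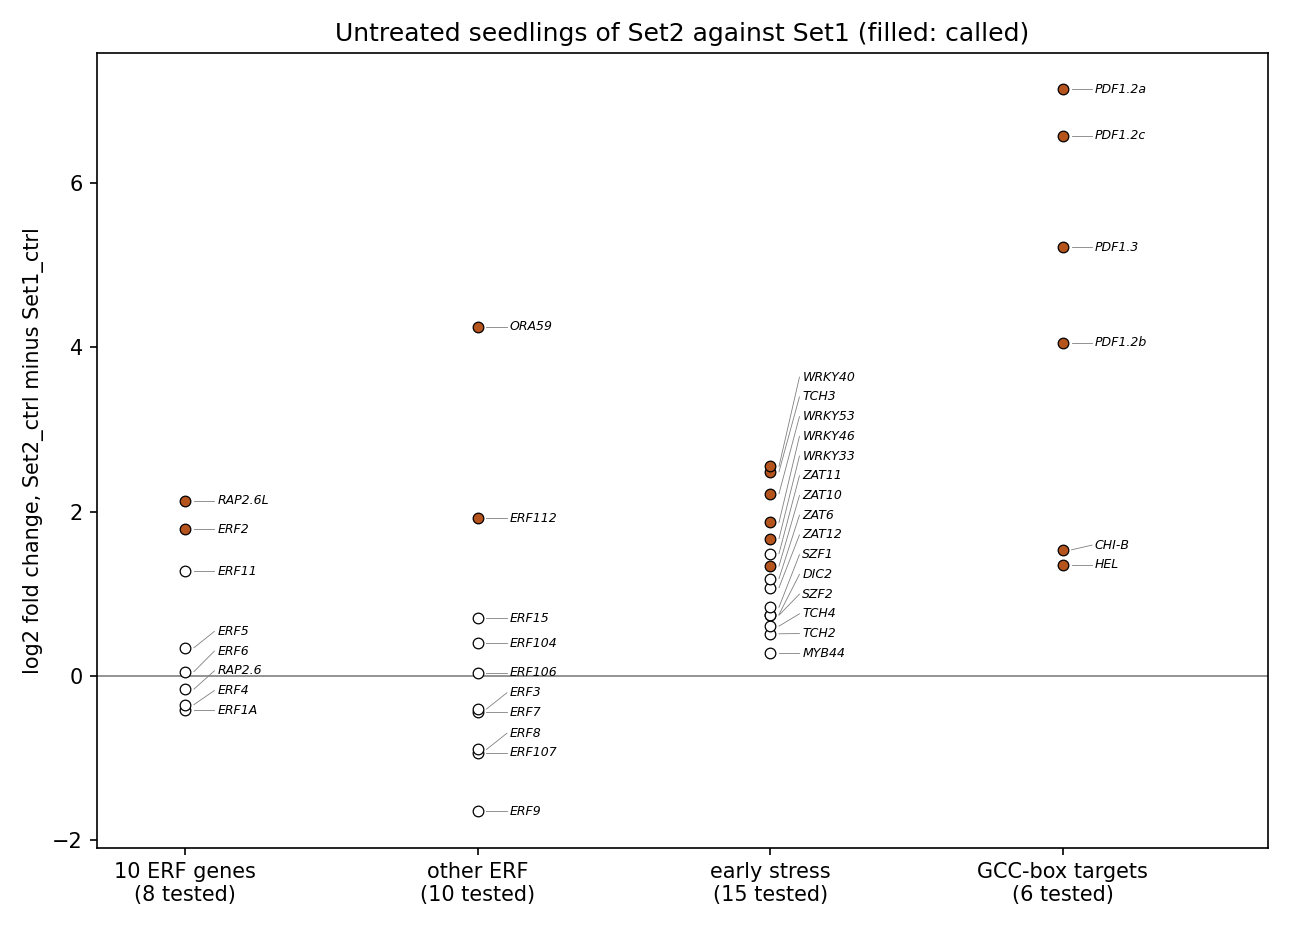
Log2 fold change of Set2_ctrl (3 libraries) over Set1_ctrl (2 libraries) on the y axis for single genes of 4 lists (x axis), with called genes filled. RAP2.6L (2.13) and ERF2 (1.78) are called among the 8 tested members, all 15 early stress genes are above 0, and all 6 GCC-box targets are called.

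Known downstream and parallel genes were examined in the same untreated libraries. All 6 GCC-box targets were higher in Set2_ctrl, from a log2 fold change of 1.35 for HEL to 7.14 for PDF1.2a, which held 1 count in each Set1_ctrl library and 125, 174 and 17 counts in the Set2_ctrl libraries. The PDF1.2 and PDF1.3 genes are near-identical copies, so their separate values are uncertain, although their expected counts were whole numbers in every library. Of the 15 early stress genes, which respond to touch and wounding, 6 were higher (WRKY40 at 2.55, TCH3 at 2.48, WRKY53 at 2.22, WRKY46 at 1.87, WRKY33 at 1.67 and ZAT10 at 1.34) and all 15 values were positive, with a median of 1.19 beside 0.01 for all genes. In the same comparison all 3 green tissue markers were lower in value, with LHCB1.3 called (-1.20, adjusted p = 0.00184), and 3 of 5 root markers were negative with none called. The part of these lists in the levels of RAP2.6L and ERF2 was not tested. After JA, edgeR called 0 of 6 GCC-box targets in Set2 (0 at an unadjusted p of 0.05 or less) and 0 of 2 tested in Set1 (1 at an unadjusted p of 0.05 or less).

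Among 23 other ERF genes of the same groups, JA called few. ORA59, the group IXc activator of PDF1.2a, rose in Set1 (log2 fold change 5.37, 1 of 11 tested), in Set2 (2.69, 1 of 10 tested) and together (3.19, 1 of 13 tested). It held 1 count in each Set1_ctrl library and 30 and 82 counts in Set1_2hJA. The sizes of its changes against Set1_ctrl are therefore uncertain. ERF107, named here after its value was seen, fell in Set1 (-1.27, adjusted p = 0.0304), and its value in Set2 was -0.22 (adjusted p = 0.425). In the untreated seedlings ORA59 (4.25) and ERF112 (1.92, also named after its value was seen) were higher in Set2, 2 of 10 tested. The medians of the other ERF genes were -0.19 in Set1 and 0.06 in Set2, beside 1.41 and 1.37 for the 9 members tested. All Set2 medians include Set2_2hJA replicate 1. Of the early stress genes, ZAT6 (2.06 and 1.66) and MYB44 (1.65 and 1.299) rose in both sets, and ZAT10 rose in the combined fit (1.53), so 2 of 14 were called in Set1 and 2 of 15 in Set2. None was called lower, but 5 of 14 values were negative in Set1 and 9 of 15 in Set2. The median of this list was 0.60 in Set1 and -0.35 in Set2.

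Some ERF genes lie close to each other, and these pairs were compared within each library, as any 2 genes can be. Among the ERF genes listed, 3 pairs with at least 1 member lay less than 10000 bases apart. ERF1A and ERF6 are on chromosome 4, 5041 bases apart with no annotated gene between them, ERF2 and ERF5 on chromosome 5, 6924 bases apart with 2 genes between, and ERF11 and the related repressor ERF12 on chromosome 1, 2668 bases apart with none between. The log2 ratio of ERF2 to ERF5 was -1.33 and -1.68 in Set1_ctrl, 2.31 and 2.01 in Set1_2hJA, -0.30, 0.08 and -0.21 in Set2_ctrl, and 2.21, 2.64 and 2.42 in Set2_2hJA. That of ERF1A to ERF6 was 0.96 and 0.32, 2.64 and 2.40, 0.64, 0.52 and -0.13, and 1.98, 2.69 and 1.76 in the same order. In each set every JA library had a higher ratio than every ctrl library for both pairs, so the first gene of each pair was higher, relative to its neighbour in the same library, after JA. The mean ratio was higher after JA by 3.66 (Set1) and 2.57 (Set2) for ERF2 and ERF5, by 1.88 and 1.80 for ERF1A and ERF6, and by 2.28 and 0.67 for ERF11 and ERF12, where ERF12 held 5 to 20 counts. An exact two-sided permutation test of the mean change, with labels permuted freely within sets, gave p = 0.0167 for each pair, the smallest value that 120 arrangements allow, and 0.0167 after adjustment over 3 pairs. With the Set2 replicates kept as pairs, the exact p was 0.0417 for each, the smallest that 48 arrangements allow, and 0.0417 after adjustment. Because every pair was at the floor, these p-values do not rank the pairs. ERF2, ERF1A and ERF11 were already apart between JA and ctrl in the same libraries, so the ratios are not independent support for their responses.

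**Figure D4:**
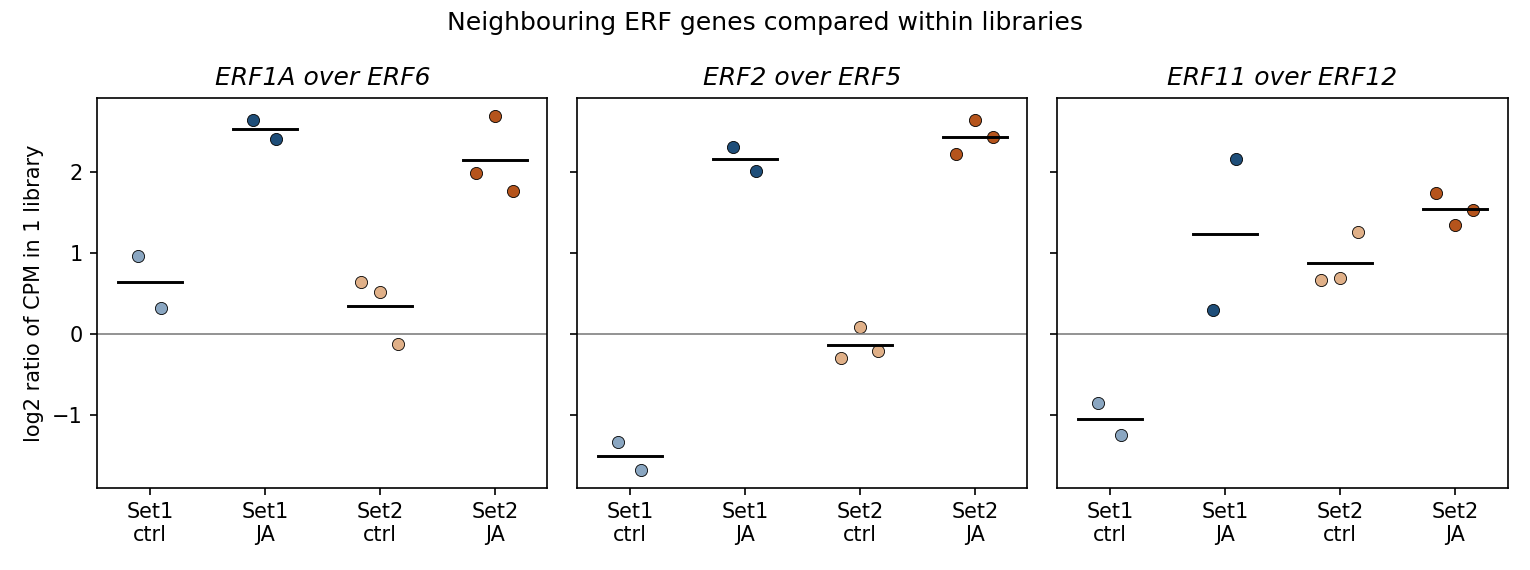
Log2 ratio of CPM of neighbouring ERF genes in each library (y axis) by group (x axis). Points are libraries and lines group means; in all 3 panels the JA libraries of each set lie above its ctrl libraries, as for ERF2 over ERF5 with 2.01 and 2.31 against -1.68 and -1.33 in Set1.

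Within a group, the same library was often highest for most members. Set2_ctrl replicate 3 was the highest of its group for 9 of the 9 members kept (33.7% of all genes), and Set2_2hJA replicate 1 was the highest of its group for 8 of 9 (34.3% of all genes). Set1_ctrl replicate 1 was highest for 8 of 9 (52.7%) and Set1_2hJA replicate 2 for 7 of 9 (49.9%). The early stress genes had the same Set2 libraries highest, for 12 of 15 in Set2_ctrl replicate 3 and 13 of 15 in Set2_2hJA replicate 1. For the other ERF genes the highest library was Set2_ctrl replicate 3, Set2_2hJA replicate 1 and Set1_ctrl replicate 1 for 9 of 13 each, whereas in Set1_2hJA it was replicate 1 for 10 of 13. The part of handling or of background in this was not tested. ERF13 was the least even of the 9 kept members in 3 of the 4 groups, and ERF6 was in Set1_2hJA. The coefficient of variation of ERF13 was 109% in Set1_ctrl, 73.9% in Set2_ctrl and 84.5% in Set2_2hJA, above 96.8% or more of all genes in those groups. ERF13 held only 1 to 8 counts in Set1_ctrl and 3 to 11 in Set2_ctrl. The ranking took no account of level, so spread from low counts was not separated from spread between seedlings. ERF2 was the most even of the 5 members called after JA in both JA groups, with 5.73% in Set1_2hJA and 20.7% in Set2_2hJA.

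**Figure D5:**
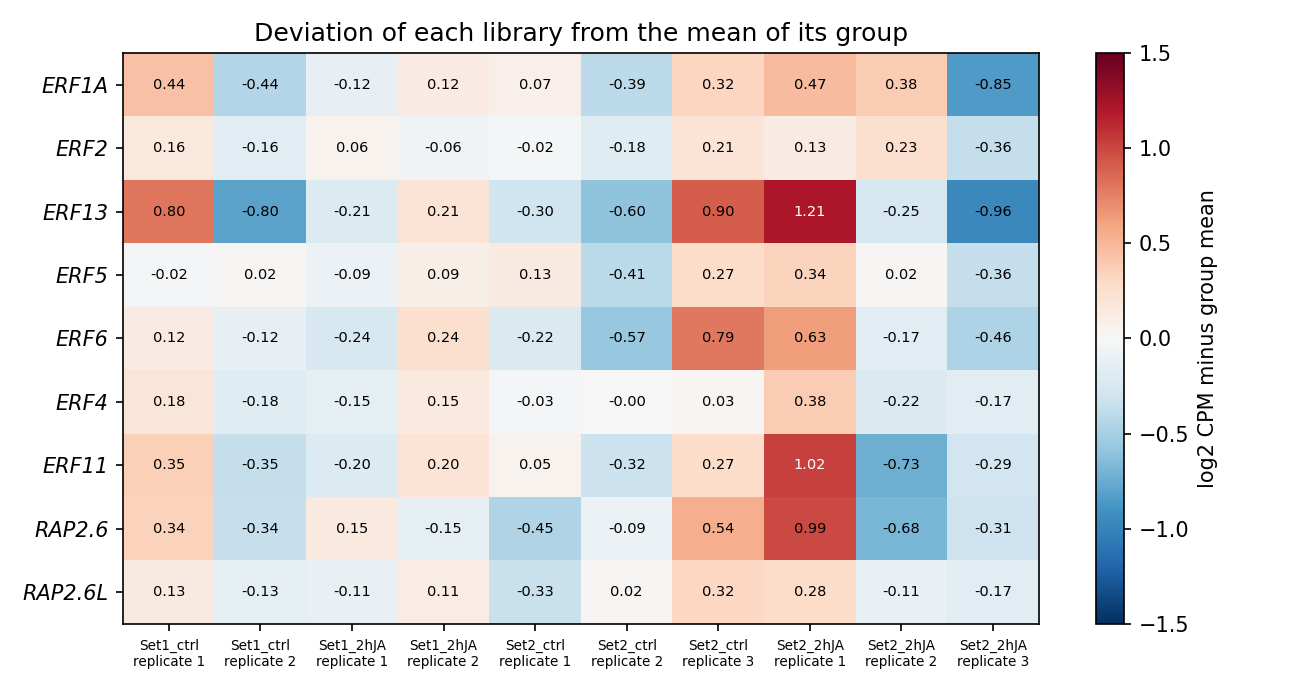
Deviation of each library (x axis) from the mean log2 CPM of its group, for the 9 kept ERF genes (y axis), in colour and as a number. Set2_2hJA replicate 1 is above its group mean for all 9 genes, by up to 1.21 for ERF13, and Set2_ctrl replicate 3 is too, by up to 0.90.

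Over the 10 libraries, the gene whose log2 CPM was most like that of ERF2 was ARGAH2, an arginase gene (Pearson's r = 0.989), followed by JAZ6 (0.988) and YLS5 (0.986). For ERF1A the 3 most alike were MAPKKK17 (0.959), AT5G19100 (0.951) and JAZ10 (0.950), and for ERF13 CMPG2 came first (0.975). RAP2.6 was most like AT5G58660 (0.961), which ranked second for ERF13 (0.953), and RAP2.6L was most like AT4G18250 (0.980). The highest values for ERF5 and ERF6 were lower (0.877 for AT4G10270 and 0.873 for ATL15). Between members, r was 0.886 for ERF1A and RAP2.6, 0.880 for ERF13 and RAP2.6 and 0.865 for ERF1A and ERF13. It was 0.838 for ERF1A and ERF2 and 0.714 for ERF5 and ERF6. Within groups the order was different, with r at 0.449, 0.823, 0.851, 0.932 and 0.869 for these pairs as listed. Other pairs are not listed. These values describe libraries that share treatment, set and depth, they include Set2_2hJA replicate 1 with its background, and they were not tested.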

How the data were processed

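RNA was extracted from whole seedlings, and stranded libraries were made from polyadenylated RNA. The authors aligned reads to TAIR10 with STAR 2.7.5a and estimated expression with RSEM 1.3.3. The deposited tables give, per gene and library, an expected count (not a whole number where reads were shared) and TPM, which is scaled by transcript length and to a fixed sum. The authors also deposited edgeR 3.36.0 comparisons, whose columns hold their own fold changes and p-values, and these were not used. Libraries were grouped by their labels and, where file names number the Set1_ctrl replicates otherwise, titles were followed. No pair of libraries in 1 group agreed within sampling noise.

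Expected counts were rounded and tested in edgeR 4.0.16 (R 4.3.3) by the quasi-likelihood F test, after filtering by expression (filterByExpr) and TMM scaling, with Benjamini-Hochberg adjustment over all genes tested. The SE is the log2 fold change divided by the square root of F. For log2 CPM a prior count of 2 was used. Each set was fitted alone, as in the study, and both sets were then fitted with set as a covariate or with the interaction. The scripts were tested on simulated data. Alternatives were DESeq2 1.42.0, library totals, no filter, limma 3.58.1 on log2(TPM + 1), organelle genes left out, a replicate block, each library left out and, chosen after seeing the data, subtraction of the background in genes without counts in Set1, and neighbour ratios permuted within Set2 pairs. Where a lone library was left in a group, it was assumed to vary like the others. Replicate numbers come from the titles. In Set2, libraries of the same number deviated together (correlations 0.242, 0.223 and 0.240). The main tests were nevertheless unpaired, so the Set2 p-values given for single genes take no account of pairs. Numbers were taken as pairs only in the replicate block and in the second permutation of the neighbour ratios. In Set2 the block changed no call count of the members.

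Genes were matched to RefSeq by identifier (32548 of 32833), and promoters were read from TAIR10.1. Where a gene has 1 transcript in RefSeq and in the tables (21304 genes), lengths were equal for 99.3%, and for 8 of the 9 members among them. The members and lists were chosen with earlier results of these data known. The named genes were the members, other ERF genes called alike in both sets, up to 6 called genes of the other lists per comparison, and for each member the 3 genes of highest correlation.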

Additional observations from a re-analysis of the deposited data

How the results depend on the processing

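Among the JA responses, ERF2 was called under every alternative run in Set1, Set2 and together, and ERF1A and RAP2.6 under every one together. Leaving out 1 library gave 1 to 4 members called higher in Set1, 1 to 3 in Set2 and 3 to 5 together, and none lower, where 2.03% to 4.26%, 1.19% to 1.84% and 2.06% to 2.89% of all genes were called higher. With the replicate block, 5 members were called in Set1 (3.81% of all genes higher), 3 in Set2 (1.98%) and 5 together (2.72%), the added one in Set1 being RAP2.6L (adjusted p = 0.036), where 2 pairs (correlation 0.429) are too few to establish pairing. No paired analysis was possible for the untreated groups because they come from different sets. Without a filter on low counts, 1 member (ERF2) had a lower response in Set2 than in Set1, as did 0.135% of all genes.

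The values that changed sign were not called in any fit, and the cause was not tested. In Set2, ERF5 was at -0.0202 without a filter and -0.00952 with background subtracted. Together, ERF6 was at 0.0560 with library totals and 0.0598 with limma, and in the interaction ERF11 was at 0.0581 with limma. Between the controls, library totals gave 0.0863 for ERF1A, 0.13 for ERF4 and 0.33 for RAP2.6, and limma gave 0.26, 0.32 and 0.36. When 1 library was left out, ERF5 ranged from -0.18 to 0.18 and ERF6 from -0.28 to 0.68 in Set2, and ERF6 from -0.26 to 0.23 together. The interaction ranged from -0.0179 to 0.88 for ERF1A, -0.28 to 0.78 for RAP2.6, -0.82 to 0.30 for ERF11 and -0.0266 to 0.93 for ERF6. The control comparison ranged from -0.81 to 0.0882 for ERF1A, -0.52 to 0.25 for RAP2.6 and -0.49 to 0.32 for ERF6. Depth limits ERF13, ERF11 and ERF109, which held few counts in most control libraries.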
